A study of Mus musculus with 18 samples.

Results

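The genes described here encode splicing factors and related RNA-binding proteins, chosen by name alone. Their symbols begin with Hnrnp or Snrp, or with Srsf, Rbm, Sf3a, Sf3b or Prpf followed directly by a digit. Rbm3 and pseudogene names were left out. Genes with a letter after Rbm, such as Rbmx and Rbmxl1, are therefore not among them. The rule found 97 of the 13784 genes in each of 3 tables of comparisons: 11 Srsf, 20 Hnrnp, 32 Rbm, 9 Sf3a or Sf3b, 12 Snrp and 13 Prpf genes. GENCODE M21 annotates 103 protein-coding mouse genes that match the rule, and the other 6 (Rbm31y, Rbm38, Rbm44, Rbm46, Rbm47 and Rbm8a2) were not analysed here. RNA came from dissected cortex of mice aged 4 to 6 months in 4 groups. They were 5 mice lacking Chd8 in astrocytes by conditional knockout (cKO) and given lipopolysaccharide (LPS), 4 cKO mice given saline, 5 control mice given LPS and 4 control mice given saline. LPS is an outer membrane component of bacteria that starts an innate immune reaction, and it was injected into the abdominal cavity at 5 mg/kg, 72 hours before the tissue was taken. The labels do not name the driver of the deletion or the sex of the mice of each group, and the control genotype is given only as control. The study asked what losing the chromatin remodeller Chd8 in astrocytes does to cortical expression at rest and during inflammation.

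Splicing removes introns from pre-mRNA and is carried out by the spliceosome, which is built from small nuclear ribonucleoproteins (snRNPs) and many further proteins. The Snrp genes encode the Sm ring proteins and U1 and U2 proteins of these particles, the Sf3a and Sf3b genes encode U2 snRNP subunits that hold the branch point, and most Prpf genes encode U1-associated, tri-snRNP or activation factors. SR proteins (Srsf) bind exons and mostly favour their inclusion, hnRNP proteins bind pre-mRNA widely and often favour skipping, and the Rbm genes are a loose group named for an RNA recognition motif. Many SR and hnRNP genes limit their own output through unproductive splice forms, which a value per gene does not separate from productive mRNA. Neurons splice more alternative exons than most other cells, and brain is a tissue in which many of these genes are well expressed.

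All values come from the authors' deposited tables, which hold a fold change, a mean level and a test for each gene but no value per mouse. Levels of the 4 groups were therefore back-calculated, and spread between mice enters through the standard error (SE) implied by the deposited F statistic. In bulk cortex, fewer cells of a type and less RNA per cell cannot be told apart. Chd8, the targeted gene, had back-calculated levels of 6.96 log2 CPM in cKO LPS, 6.51 in cKO saline, 6.95 in control LPS and 6.62 in control saline, so whole-cortex RNA shows no lower Chd8 in cKO mice after LPS (0.02 ± 0.05 in the authors' deposited table). In the lists of cell type markers, the summed level of 5 endothelial genes was 250 CPM in cKO LPS and 135 in cKO saline, and 261 in control LPS and 129 in control saline, and that of 6 microglial genes was 357, 280, 430 and 278 CPM in the same order. At the FDR threshold, 4 of 5 endothelial genes rose in each genotype, and of the microglial genes 3 rose and 1 fell in cKO mice and 4 rose in controls. The 7 astrocyte genes summed to 3994 CPM in cKO LPS, 4578 in cKO saline, 3772 in control LPS and 3964 in control saline, while the 5 striatal genes summed to 228, 180, 150 and 156. Single astrocyte genes went both ways after LPS. In cKO mice 4 lay above 0 and 3 below, and 3 fell past the threshold. In controls 2 lay above 0 and 5 below, and 1 rose and 1 fell. The 2 measured choroid plexus genes of 4 listed had the widest difference between LPS and saline among the marker lists, at 17.8 CPM in cKO LPS, 114 in cKO saline, 8.65 in control LPS and 111 in control saline, and neither passed the threshold in either genotype. Sex-linked Xist passed in no comparison in the authors' deposited tables. Its FDR was 0.598 for LPS in cKO mice, 0.938 for LPS in controls and 0.810 between genotypes after LPS. Xist stood at 5.98 log2 CPM in cKO LPS, 4.35 in cKO saline, 7.30 in control LPS and 7.47 in control saline. Y-linked Ddx3y stood at 5.69, 5.87, 3.96 and -7.19 log2 CPM in the same order, so Y-linked RNA was near absent in control saline and present in control LPS, and Ddx3y and Uty passed between those groups (FDR = 0.0351 and FDR = 0.0377 in the authors' deposited table). The part of these differences in the results below was not tested.

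The splicing-factor genes were well expressed, and their levels ranged slightly less between the groups than those of all genes. Their median level was 5.62 log2 CPM in cKO LPS, 5.60 in cKO saline, 5.49 in control LPS and 5.62 in control saline, against a median over all genes of 4.66 to 4.67 in each group. Between the highest and lowest of the 4 groups, the median member differed by 0.21 on the log2 scale and the median gene of the tables by 0.26. Of the 97 members, 60 differed by less than 0.25 across the groups (61.9%, against 48.5% of all genes). Members also had smaller errors of the LPS fold change. The median SE was 0.076 in cKO mice and 0.086 in controls, against 0.091 and 0.094 over all genes. The part of level and precision in the narrower range was not tested. Prpf3 had the widest range among members, 0.85.

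Levels of different genes were compared per kilobase of the longest GENCODE M21 transcript, in log2 CPM per kilobase averaged over the groups. Snrpn, the imprinted, paternally expressed gene for the neuronal Sm protein SmN, had the highest level, 8.01, while its paralog Snrpb, which encodes SmB in most tissues, had 4.76 and Snrpc, a U1 protein gene, had the lowest of its family, 1.49. Among hnRNP genes the level per kilobase ran from 6.89 for Hnrnpk to 2.30 for Hnrnpr, whose longest annotated transcript is 21452 bases long. SR genes ran from 6.14 for Srsf5 to 2.72 for Srsf12. Rbm39, a U2AF-related factor, led the RBM genes at 6.09, and Rbm20, known for splicing titin in heart muscle, was lowest at 0.45. Sf3b2 led the SF3 genes at 6.11, with Sf3b5 lowest at 2.14, and Prpf8, the catalytic-centre protein of the spliceosome, led the PRPF genes at 5.36, with Prpf4 lowest at 2.04. These are levels per length and carry no test, and some of the low ranks depend on the length used. By log2 CPM, Snrpc (longest transcript 6107 bases) stood above Snrpe, Snrpf and Snrpg in every group. Likewise Sf3b5 (3841 bases) stood above Sf3a2, and Prpf4 (5223 bases) above Prpf3. Srsf12 was the lowest of its family by log2 CPM too.

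In cKO mice given LPS, a minority of these genes rose relative to saline and fewer fell. By the FDR of the authors' deposited table, with 0.05 as the threshold, 16 of 97 members rose (16.5%, against 10.9% of all genes) and 6 fell (6.19%, against 8.52% of all genes). Calls in either direction covered 22.7% of members and 19.5% of all genes, a share near the background, and 41 had an unadjusted p below 0.05 (42.3%, against 35.8% of all genes). The median log2 fold change of the members was 0.05, against 0.00 over all genes, and 57 of 97 lay above 0. The rises were small: with a minimum fold change of 1.5, 4 members remained (Rbm33, Prpf3, Hnrnpa2b1 and Sf3a2) in the authors' deposited table. These were 4.12% of members, against 4.71% of all genes, a share near the background.

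**Figure D1:**
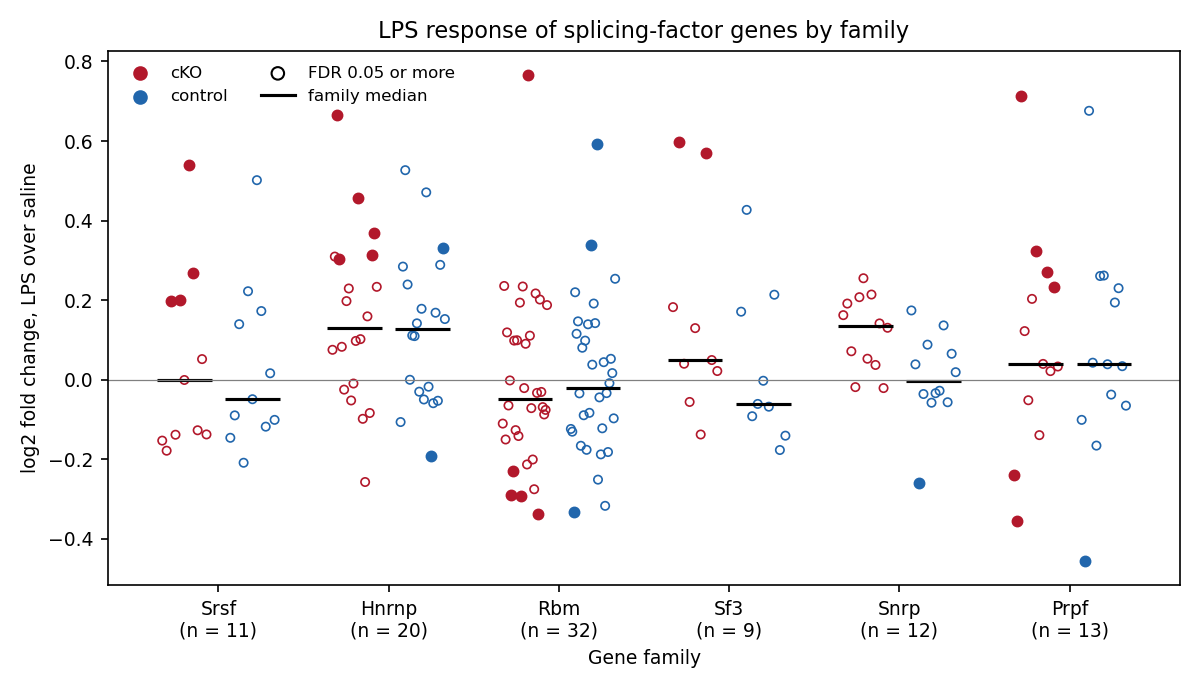
Each point is 1 gene; the vertical axis is the log2 fold change of LPS over saline from the authors' deposited tables, with cKO in red left of control in blue, filled where the FDR is below 0.05, and bars at family medians. In cKO mice the filled points are 16 above 0 and 6 below, and in controls 3 above and 4 below.

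Among SR genes in cKO mice, 4 of 11 rose (36.4%, against 10.9% of all genes), none fell, and 7 did not pass. Srsf4 had the largest change among them. Its back-calculated level was 5.21 log2 CPM in cKO LPS and 4.66 in cKO saline, and 5.20 in control LPS and 4.68 in control saline, so the LPS groups stood above the saline groups in both genotypes. The authors' deposited table gives a rise of 0.54 ± 0.10 (SE) in cKO mice (FDR = 0.00887). Srsf5, Srsf2 and Srsf11 rose by 0.27 ± 0.07, 0.20 ± 0.05 and 0.20 ± 0.05 in the same authors' deposited table. Srsf1, a founding member of the family, had -0.15 ± 0.05 (FDR = 0.0733) and Srsf3 had 0.00 ± 0.05 in the authors' deposited table.

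Of the hnRNP genes, 5 of 20 rose in cKO mice (25%, against 10.9% of all genes) and none fell. Hnrnpa2b1, whose protein binds pre-mRNA and also packs mRNAs into transport granules, stood at 7.77 log2 CPM in cKO LPS, 7.08 in cKO saline, 7.70 in control LPS and 7.17 in control saline. Its rise was 0.67 ± 0.12 (FDR = 0.0101) in the authors' deposited table for cKO mice. The related Hnrnpa3 rose by 0.30 ± 0.09 (FDR = 0.0420), and Hnrnpa1 had a like value without passing, 0.31 ± 0.10 (FDR = 0.0571), in the authors' deposited table. Hnrnph3, of the group that binds G-rich RNA, rose by 0.46 ± 0.14, whereas its relatives Hnrnph1 and Hnrnpf had -0.01 ± 0.06 and -0.05 ± 0.06 in the authors' deposited table. Hnrnpu, which also organises chromatin in the nucleus, rose by 0.31 ± 0.06 and Hnrnpul1, a relative of it, by 0.37 ± 0.06 (FDR = 0.0116 and FDR = 0.00755) in the authors' deposited table. The median over the family was 0.13.

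U2 snRNP genes did not move as a block in cKO mice. Sf3a2 and Sf3b4 rose, by 0.60 ± 0.12 and 0.57 ± 0.07 (FDR = 0.0139 and FDR = 0.00387) in the authors' deposited table, while the other 7 subunits lay between -0.14 and 0.18 and did not pass. Sf3b4, whose protein contacts pre-mRNA near the branch point, stood at 4.50 log2 CPM in cKO LPS, 3.91 in cKO saline, 4.27 in control LPS and 4.06 in control saline. Sf3a2 stood at 3.95, 3.34, 3.74 and 3.30 log2 CPM in the same order. Sf3b1, the largest subunit of SF3b, had -0.06 ± 0.06 in the authors' deposited table for cKO mice. None of the 12 Sm and snRNP genes passed the test, with Snrpd1 highest at 0.26 ± 0.11 (FDR = 0.135), in the authors' deposited table. Of these genes, 10 lay above 0 (median 0.14), and 2 had an unadjusted p below 0.05 (16.7%, against 35.8% of all genes).

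PRPF genes split in cKO mice, where 4 of 13 rose (30.8%, against 10.9% of all genes) and 2 fell (15.4%, against 8.52%). Prpf3, a U4/U6 snRNP protein gene that is mutated in some human retinitis pigmentosa, had levels of 3.98 log2 CPM in cKO LPS, 3.24 in cKO saline, 4.09 in control LPS and 3.38 in control saline. It rose by 0.71 ± 0.11 (FDR = 0.00608) in the authors' deposited table for cKO mice. The U1-associated genes Prpf39 and Prpf40b rose by 0.32 ± 0.09 and 0.27 ± 0.07, and Prpf6, which bridges the parts of the tri-snRNP, rose by 0.23 ± 0.06 in the authors' deposited table. Prpf19, the ubiquitin ligase at the core of the complex that activates the spliceosome, fell by 0.35 ± 0.08 (FDR = 0.0151), and Prpf18, a factor of the late catalytic step, fell by 0.24 ± 0.07 (FDR = 0.0362) in the authors' deposited table. With the trend on GC content and length removed, the calls of Prpf18 (-0.18, adjusted p = 0.0944), Prpf40b (0.17, adjusted p = 0.120) and Prpf6 (0.18, adjusted p = 0.0737) ended. Prpf8 had 0.03 ± 0.05 in the authors' deposited table.

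RBM genes were the family with more falls than rises in cKO mice, 4 against 1 of 32, with a median of -0.05. The falls were 12.5% of the family, against 8.52% of all genes, and the rise 3.1%, against 10.9%. The single rise, of Rbm33, was the largest among all members, 0.77 ± 0.08 (FDR = 0.00338) in the authors' deposited table. RBM33 has been described in human cells as a partner of the RNA demethylase ALKBH5. Rbm45, whose protein is found in inclusions in human amyotrophic lateral sclerosis (ALS), fell by 0.34 ± 0.07 (FDR = 0.0121) and Rbm24, which guides splicing in muscle and heart, by 0.29 ± 0.08 (FDR = 0.0309) in the authors' deposited table. Rbm15 and Rbm15b, whose proteins belong to the complex that writes N6-methyladenosine on RNA, fell by 0.29 ± 0.08 and 0.23 ± 0.06 (FDR = 0.0339 and FDR = 0.0289) in the authors' deposited table. The call of Rbm15 ended with the trend on GC content and length removed, at -0.23 (adjusted p = 0.0818).

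In control mice, fewer splicing-factor genes passed. In the authors' deposited table for controls, 3 of 97 members rose (3.09%, against 6.46% of all genes) and 4 fell (4.12%, against 3.31%), so 7.22% of members were called, against 9.76% of all genes. An unadjusted p below 0.05 was found for 28 members (28.9%, against 28.9% of all genes). The median was 0.02, against 0.00 over all genes, and 50 of 97 lay above 0. By family, the calls in controls were 1 rise and 1 fall of 20 hnRNP genes, 2 rises and 1 fall of 32 RBM genes, 1 fall of 12 Sm and snRNP genes and 1 fall of 13 PRPF genes. SR and SF3 genes had none, and their medians were -0.05 and -0.06. The rises were of Rbm33 (0.59 ± 0.12, FDR = 0.0188), Hnrnpul1 (0.33 ± 0.09, FDR = 0.0481) and Rbm25, a factor that associates with U1 (0.34 ± 0.08, FDR = 0.0279), in the authors' deposited table.

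The falls in controls were of Prpf19 (-0.46 ± 0.08, FDR = 0.00880), Rbm12 (-0.33 ± 0.08, FDR = 0.0380), Snrpb (-0.26 ± 0.07, FDR = 0.0418) and Hnrnpl, whose protein binds CA repeats (-0.19 ± 0.05, FDR = 0.0423), in the authors' deposited table. With the trend on GC content and length removed, the calls of Hnrnpul1 (0.26, adjusted p = 0.0992), Rbm12 (-0.29, adjusted p = 0.0629) and Snrpb (-0.23, adjusted p = 0.0629) ended. Rbm12 shares 32.6% of its exon bases on the same strand with the annotated protein-coding gene Gm28036 and 6.04% with Cpne1, and how the authors divided such reads was not given in the sources used here. Several genes with large values in controls had wide errors and did not pass, among them Prpf3 (0.68 ± 0.21, FDR = 0.0647) and Srsf4 (0.50 ± 0.15, FDR = 0.0644) in the authors' deposited table.

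**Figure D2:**
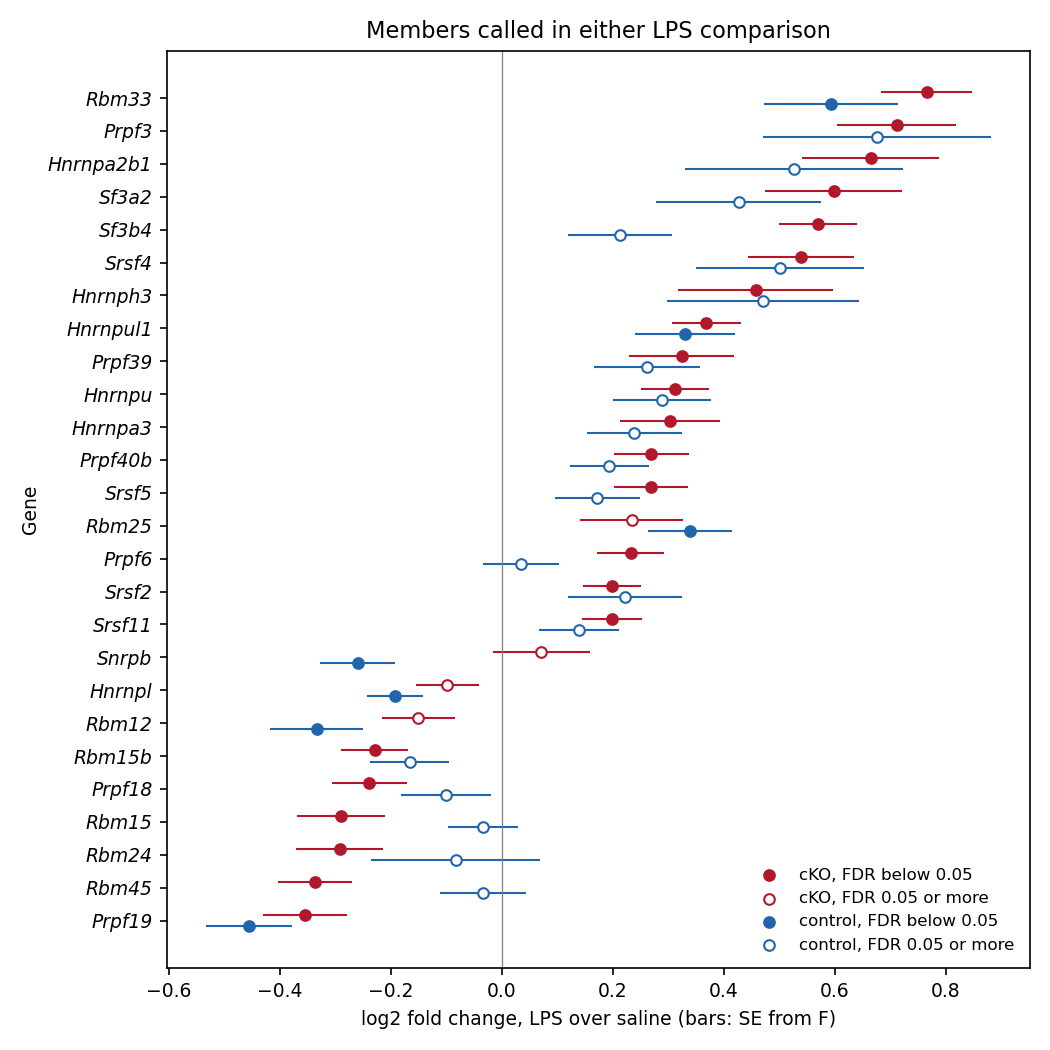
Log2 fold change of LPS over saline (horizontal axis) with its SE for each member called in at least 1 genotype, cKO in red above control in blue, filled where the FDR in the authors' deposited table is below 0.05. The 2 filled pairs on the right are Rbm33 and Hnrnpul1, the filled pair on the left is Prpf19, and Snrpb is the only gene shown whose signs differ.

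The responses of the genotypes lay close together for most members. All 22 members called in cKO mice had the same sign in controls, against 2499 of 2681 among all genes called there. Of the 7 called in controls, 6 had the same sign in cKO mice, the exception being Snrpb, against 1309 of 1346 among all genes. Over all members 70 of 97 signs matched (72.2%, against 74.2% of all genes), and the fold changes of these comparisons, which share no library, correlated with r = 0.77 across the 97 members and r = 0.68 across the 13784 genes. This is a description across genes, which are not independent replicates. In both genotypes 3 of 97 members passed, Rbm33, Hnrnpul1 and Prpf19, against 725 of all 13784 genes.

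Rbm33 stood at 6.33 log2 CPM in cKO LPS and 5.54 in cKO saline, and at 6.22 in control LPS and 5.62 in control saline. Hnrnpul1 stood at 6.70 in cKO LPS and 6.33 in cKO saline, and at 6.60 in control LPS and 6.27 in control saline. Prpf19 went the other way, with 7.04 in cKO LPS and 7.44 in cKO saline, and 6.95 in control LPS and 7.46 in control saline. For each of these genes both LPS levels lay on the same side of both saline levels.

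The 250 bases upstream of the annotated start of these genes are shown because they are the members called in both genotypes. The sequences are from RefSeq (GRCm38.p6, whereas the authors' build was GRCm39), 5′ to 3′ on the gene's strand, with the most upstream window taken for Prpf19. Capitals mark matches on either strand to the GC box GGGCGG, the CCAAT box CCAAT or the ETS core CCGGAAG.
Rbm33 (chr5:28316939-28317188, + strand): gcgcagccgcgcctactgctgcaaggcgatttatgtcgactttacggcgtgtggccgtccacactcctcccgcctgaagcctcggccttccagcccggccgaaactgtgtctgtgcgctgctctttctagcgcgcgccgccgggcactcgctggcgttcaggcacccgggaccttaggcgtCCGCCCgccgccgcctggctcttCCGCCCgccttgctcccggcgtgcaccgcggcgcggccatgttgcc
Hnrnpul1 (chr7:25754760-25755009, - strand): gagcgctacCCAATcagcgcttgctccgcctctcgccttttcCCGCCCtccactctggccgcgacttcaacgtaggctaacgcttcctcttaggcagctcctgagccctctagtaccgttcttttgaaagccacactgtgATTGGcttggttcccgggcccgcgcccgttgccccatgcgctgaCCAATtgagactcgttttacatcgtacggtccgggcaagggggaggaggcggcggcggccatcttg
Prpf19 (chr19:10894981-10895230, + strand): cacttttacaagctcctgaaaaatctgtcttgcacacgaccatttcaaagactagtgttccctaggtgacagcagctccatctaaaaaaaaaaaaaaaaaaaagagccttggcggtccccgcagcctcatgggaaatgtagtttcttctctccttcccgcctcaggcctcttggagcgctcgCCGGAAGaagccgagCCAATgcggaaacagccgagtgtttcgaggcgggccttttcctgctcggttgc
Rbm33 held 2 GC boxes in a window of 70.8% GC. Hnrnpul1 held 3 CCAAT boxes and 1 GC box in a window of 61.6% GC, and Prpf19 held 1 ETS core and 1 CCAAT box in a window of 51.2% GC. Among 10271 measured genes with a window, 60.0% held a GC box, 36.4% a CCAAT box and 13.4% an ETS core, against 47, 39 and 21 of the 83 members with a window (56.6%, 47.0% and 25.3%). These matches describe letters and were not tested.

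**Figure D3:**
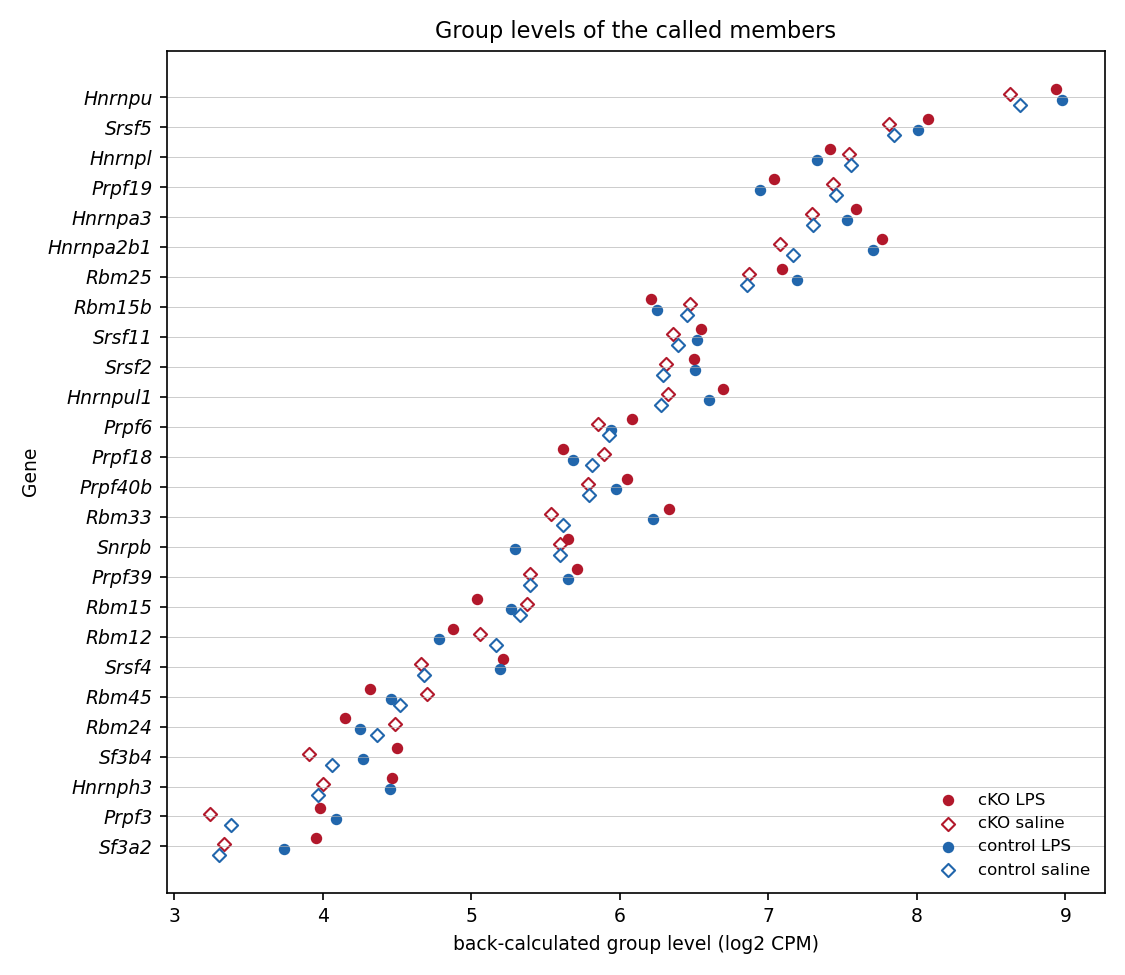
Back-calculated group levels in log2 CPM (horizontal axis) of the members called in at least 1 LPS comparison, with circles for LPS and diamonds for saline, cKO in red and control in blue. Rbm33 has both circles right of both diamonds, Prpf19 has both circles left of both diamonds, and Snrpb has the control LPS circle alone at the low end.

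Whether the response to LPS differed between genotypes was tested for each gene as the difference of its fold changes over the SE of that difference. No member passed after Benjamini-Hochberg adjustment over all genes (smallest adjusted p = 0.583), and 0.00725% of all genes did. At an unadjusted p below 0.05 there were 7 members, 4 with a higher and 3 with a lower fold change in cKO mice (7.22%, against 6.52% of all genes). With standard errors taken from F, 0 members passed the adjustment and 8 had an unadjusted p below 0.05 (8.25%, against 8.47% of all genes). A call in cKO mice without one in controls is therefore not shown to be a difference between genotypes. By errors derived from each deposited p, the largest difference relative to its error was that of Snrpb, 0.33 ± 0.13 (adjusted p = 0.583), with Rbm34 at 0.36 ± 0.15 and Rbm48 at 0.38 ± 0.17. Sf3b4 had a difference of 0.36 ± 0.17 (adjusted p = 0.743). With standard errors from F, the smallest adjusted p among members was 0.400, for Sf3b4, and that of Snrpb was 0.406. At the other end, Rbm45 had -0.30 ± 0.13, Rbm15 -0.26 ± 0.12 and Prpf4b, a kinase of spliceosomal proteins, -0.21 ± 0.11. For comparison, the difference was 0.04 ± 0.24 for Srsf4, 0.04 ± 0.31 for Prpf3 and 0.02 ± 0.14 for Hnrnpu, errors that leave room for differences of either sign.

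After LPS, no splicing-factor gene passed between cKO and control cortex. For this comparison, 0 of 97 members had an FDR below 0.05 by the authors' deposited table, against 0.00725% of all genes, and 11 members had an unadjusted p below 0.05 (11.3%, against 12.3% of all genes). Of these 11, 7 were higher and 4 lower in cKO mice. The median of the members was 0.04, against 0.00 over all genes, and 59 of 97 lay above 0. SF3 genes lay above 0 in 8 of 9 (median 0.12) and Sm and snRNP genes in 9 of 12 (median 0.14), while RBM genes lay above 0 in 13 of 32 (median -0.05) in the authors' deposited table. The striatal markers lay above 0 in 5 of 5 (median 0.70) and the microglial markers below 0 in 6 of 6 (median -0.25), none of them past the threshold, and their part in the values here was not tested.

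Snrpb had the smallest p among members in this comparison, with 0.38 ± 0.07 in cKO over control mice (FDR = 0.163) in the authors' deposited table. Its levels were 5.65 log2 CPM in cKO LPS, 5.60 in cKO saline, 5.30 in control LPS and 5.60 in control saline, so the control LPS group stood apart from the other 3. Other Sm ring genes had 0.27 ± 0.11 (Snrpd1, FDR = 0.380), 0.28 ± 0.13 (Snrpd3, FDR = 0.429), 0.09 ± 0.10 (Snrpd2), 0.21 ± 0.16 (Snrpf), -0.05 ± 0.13 (Snrpe) and -0.10 ± 0.15 (Snrpg) in the authors' deposited table. The ring proteins assemble in fixed proportion, and their mRNA values here were not uniform in sign.

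Other members at the top of this comparison were Sf3b4 (0.25 ± 0.08, FDR = 0.324), Hnrnpa0 (0.20 ± 0.07, FDR = 0.350), Sf3b2 (0.15 ± 0.06, FDR = 0.350) and Prpf6 (0.15 ± 0.06, FDR = 0.373) in the authors' deposited table. On the lower side stood Prpf4b (-0.15 ± 0.05, FDR = 0.336), Rbm15 (-0.24 ± 0.09, FDR = 0.363), Rbm6 (-0.13 ± 0.06, FDR = 0.383), the nucleolar protein gene Rbm28 (-0.28 ± 0.12, FDR = 0.400) and Rbm45 (-0.16 ± 0.08, FDR = 0.450) in the authors' deposited table. This comparison shares its LPS mice with the comparisons of LPS in each genotype, so its values are not separate evidence on those responses.

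**Figure D4:**
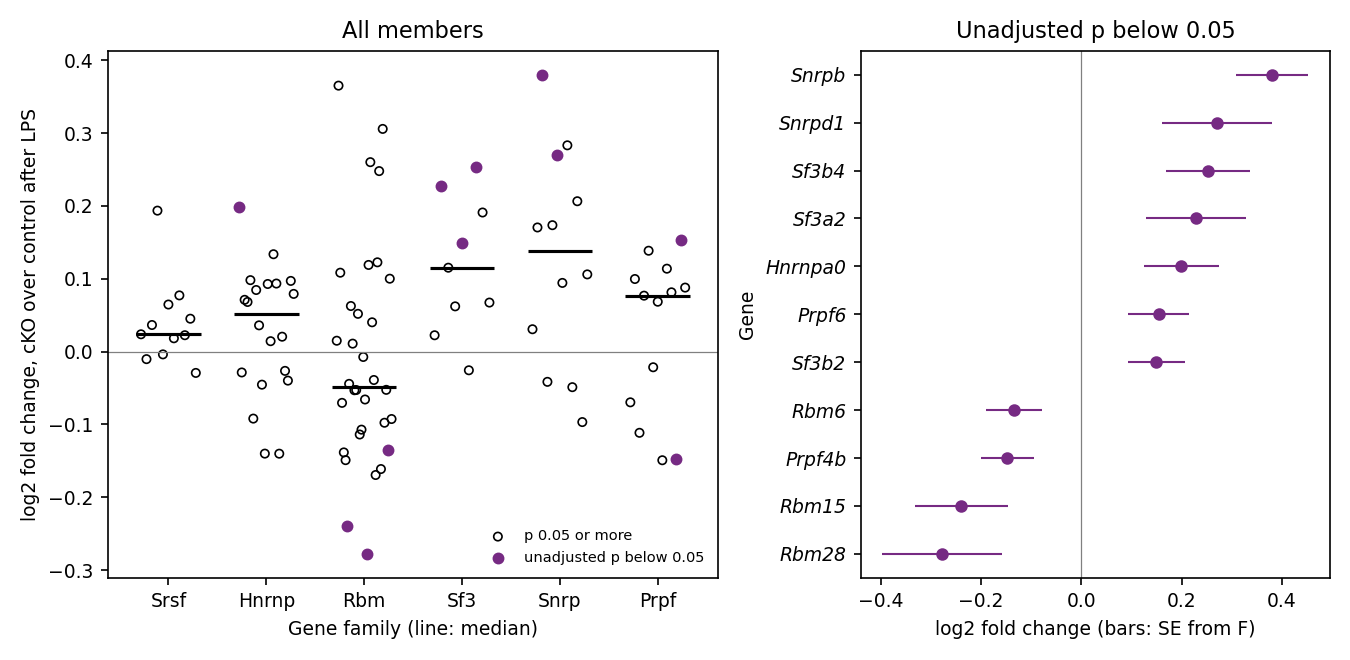
Left, log2 fold change of cKO over control mice after LPS for every member by family, with bars at medians and filled points at an unadjusted p below 0.05; right, those 11 members with their SE. Snrpb is highest at 0.38 and Rbm28 lowest among the 11 at -0.28, and no FDR in the authors' deposited table was below 0.05.

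Without LPS, cKO and control mice could be compared only by a point estimate from the 3 deposited fold changes. It lay between -0.15 (Prpf3) and 0.14 (Rbm45) for the members, with a median of 0.01 and 55 of 97 above 0, against a median of 0.00 over all genes. The estimate was not tested here. It was 0.05 for Snrpb, -0.10 for Sf3b4 and 0.02 for Rbm15.

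The X-linked members were Hnrnph2, Rbm10 and Rbm41, and they were looked at apart because the back-calculated Xist level varied between the groups, though Xist passed in no comparison. None passed in any comparison: after LPS in cKO mice they had 0.10 ± 0.06, -0.11 ± 0.07 and -0.28 ± 0.16, and in controls -0.05 ± 0.08, -0.12 ± 0.06 and -0.12 ± 0.15, in the authors' deposited tables. Since none was called, leaving them out could not change the counts of 16 rises and 6 falls in cKO mice and 3 and 4 in controls.

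Transcripts of the members were poorer in GC than those of all genes, with a median GC content of 45.0% against 49.5% over the longest transcripts, and of similar length (median 3424 against 3530 bases). Across all genes the fold change after LPS in cKO mice correlated with GC content at r = 0.22, and across the 97 members at r = 0.16; in controls the values were 0.10 and 0.04. The 16 members that rose in cKO mice had a median GC content of 48.5%, the 6 that fell 49.8% and the other 75 a median of 44.5%. Sf3a2 had the highest GC content of all members, 62.2%, and Prpf39, which also rose, had 37.6%. With the trend on GC content and length removed, 19 members rose and 4 fell in cKO mice (median 0.11), and 2 rose and 3 fell in controls (median 0.04). These calls covered 23.7% of members in cKO mice, against 14.5% of all genes, and 5.2% in controls, against 7.14%.

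Further genes of RNA processing were read from 10 lists that do not overlap with the members. Recognition of the intron ends was the list with the largest share of rises. Of 11 genes for U1 and branch point recognition, 5 rose and none fell in cKO mice (45.5%, against 10.9% of all genes), and 3 rose and none fell in controls (27.3%, against 6.46%), in the authors' deposited tables. The median of these genes was 0.15 in cKO mice and 0.01 in controls. They include Snrnp70, the U1-70K protein gene, with levels of 8.32 log2 CPM in cKO LPS, 7.85 in cKO saline, 8.15 in control LPS and 7.86 in control saline. Snrnp70 rose by 0.46 ± 0.06 in cKO mice (FDR = 0.00496) and by 0.30 ± 0.07 in controls (FDR = 0.0284) in the authors' deposited tables. Cherp, of the U2-associated proteins, rose by 0.72 ± 0.17 in cKO mice and 0.77 ± 0.19 in controls, and Sf1, the branch point binding protein gene, rose by 0.35 ± 0.11 in cKO mice and 0.43 ± 0.11 in controls, in the authors' deposited tables.

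SR-related coactivators showed rises in both genotypes. Of 24 genes in the list with the SR kinases and TRA2 genes, 5 rose in cKO mice and 3 in controls, and none fell, in the authors' deposited tables. The rises were 20.8% and 12.5% of the list, against 10.9% and 6.46% of all genes. Srrm1 rose by 0.82 ± 0.14 in cKO mice and 0.76 ± 0.17 in controls, Srrm2 by 0.46 ± 0.10 and 0.40 ± 0.07, and Luc7l3, a U1-associated gene, by 0.34 ± 0.06 and 0.37 ± 0.09, in the authors' deposited tables. Pnn, the gene for pinin of nuclear speckles, rose by 0.69 ± 0.16 in cKO mice and had 0.60 ± 0.19 in controls (FDR = 0.0782) in the authors' deposited tables. The list's median was 0.13 in cKO mice and 0.20 in controls, against 0.00 over all genes in each.

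Among 17 genes for paraspeckle and ALS-linked RNA-binding proteins, 7 rose in cKO mice and 2 in controls, and none fell, in the authors' deposited tables. The rises were 41.2% and 11.8% of the list, against 10.9% and 6.46% of all genes. Nono, of paraspeckles, rose by 0.23 ± 0.06 in cKO mice and 0.28 ± 0.07 in controls in the authors' deposited tables. Ewsr1 and the paraspeckle gene Pspc1 rose by 0.27 ± 0.05 and 0.39 ± 0.08 in cKO mice, and had 0.16 ± 0.06 and 0.02 ± 0.10 in controls, in the authors' deposited tables.

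Regulators typical of neurons and other cell types moved in both directions, where 6 of 27 rose and 4 fell in cKO mice, and 5 rose and 1 fell in controls, by the authors' deposited tables. In cKO mice 22.2% of the list rose and 14.8% fell, against 10.9% and 8.52% of all genes. In controls 18.5% rose and 3.70% fell, against 6.46% and 3.31% of all genes. Celf3 rose by 0.50 ± 0.09 in cKO mice and 0.39 ± 0.09 in controls, and Celf5 by 0.49 ± 0.10 in cKO mice and 0.51 ± 0.10 in controls, in the authors' deposited tables. Ptbp1, the repressor of neuronal exons, rose by 0.29 ± 0.08 in cKO mice and 0.48 ± 0.10 in controls in the authors' deposited tables. Zfp36, whose protein speeds decay of inflammatory mRNAs, rose by 0.84 ± 0.24 in cKO mice and 1.03 ± 0.21 in controls, and Msi2 fell by 0.33 ± 0.05 in cKO mice and 0.30 ± 0.08 in controls, in the authors' deposited tables. Rbfox3, the gene for the neuronal marker NeuN, rose by 0.58 ± 0.09 in cKO mice and had 0.39 ± 0.13 in controls (FDR = 0.0777) in the authors' deposited tables. Msi1 rose by 1.06 ± 0.17 in cKO mice and had 0.77 ± 0.23 in controls (FDR = 0.0621), while Celf2 had 0.11 ± 0.09 in cKO mice and rose by 0.29 ± 0.06 in controls, in the authors' deposited tables. The 4 excitatory neuron markers summed to 2156 CPM in cKO LPS and 1779 in cKO saline, and to 2192 in control LPS and 1749 in control saline. In cKO mice 2 of these 4 genes lay above 0 and 2 below (median 0.05), and in controls 4 lay above 0 (median 0.24). In each genotype 1 of them rose past the threshold. The part of these markers in the rises of the regulators was not tested.

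Of 31 helicase and catalytic core genes, 7 rose in cKO mice and none in controls in the authors' deposited tables (22.6% and 0%, against 10.9% and 6.46% of all genes). In controls 6 of them had an unadjusted p below 0.05 (19.4%, against 28.9% of all genes). The rises in cKO mice include Isy1 (0.33 ± 0.07), Sart1 (0.36 ± 0.08), Cwc22 (0.32 ± 0.07) and Cwc27 (0.58 ± 0.14). Lsm genes had no rise and 2 falls of 13 in cKO mice, Lsm1 (-0.48 ± 0.11) and Lsm11 (-0.39 ± 0.07), in the authors' deposited table. These falls were 15.4% of the list, against 8.52% of all genes. Lsm genes had no call in controls, where 5 had an unadjusted p below 0.05 (38.5%, against 28.9% of all genes), in the authors' deposited table. In the list for the exon junction complex and nonsense-mediated decay, Upf3b rose by 0.42 ± 0.09 and Smg1 fell by 0.35 ± 0.06 in cKO mice in the authors' deposited table. In cKO mice this was 6.25% of the list in each direction, against 10.9% of all genes rising and 8.52% falling. None of these 16 genes was called in controls, where 2 had an unadjusted p below 0.05 (12.5%, against 28.9% of all genes), in the authors' deposited table. Smn1, the gene of the snRNP assembly protein SMN, rose by 0.49 ± 0.14 in cKO mice and Gemin7 fell by 0.35 ± 0.09 in controls, the single calls among 16 assembly genes in each authors' deposited table. Each was 6.25% of the list, against 10.9% of all genes rising in cKO mice and 3.31% falling in controls. For the minor spliceosome Rnpc3 had 0.16 ± 0.13 in cKO mice and rose by 0.31 ± 0.07 in controls in the authors' deposited tables. Nudt21, which sets the choice of polyadenylation site, fell by 0.22 ± 0.06 in cKO mice and 0.24 ± 0.06 in controls in the authors' deposited tables, the single call among 16 cleavage and polyadenylation genes in each genotype. That is 6.25% of the list, against 8.52% of all genes falling in cKO mice and 3.31% in controls. No gene of the 10 lists passed between cKO and control mice after LPS in the authors' deposited table. The difference of LPS responses between genotypes passed for none of them either, with the smallest adjusted p at 0.456 (Isy1).

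**Figure D5:**
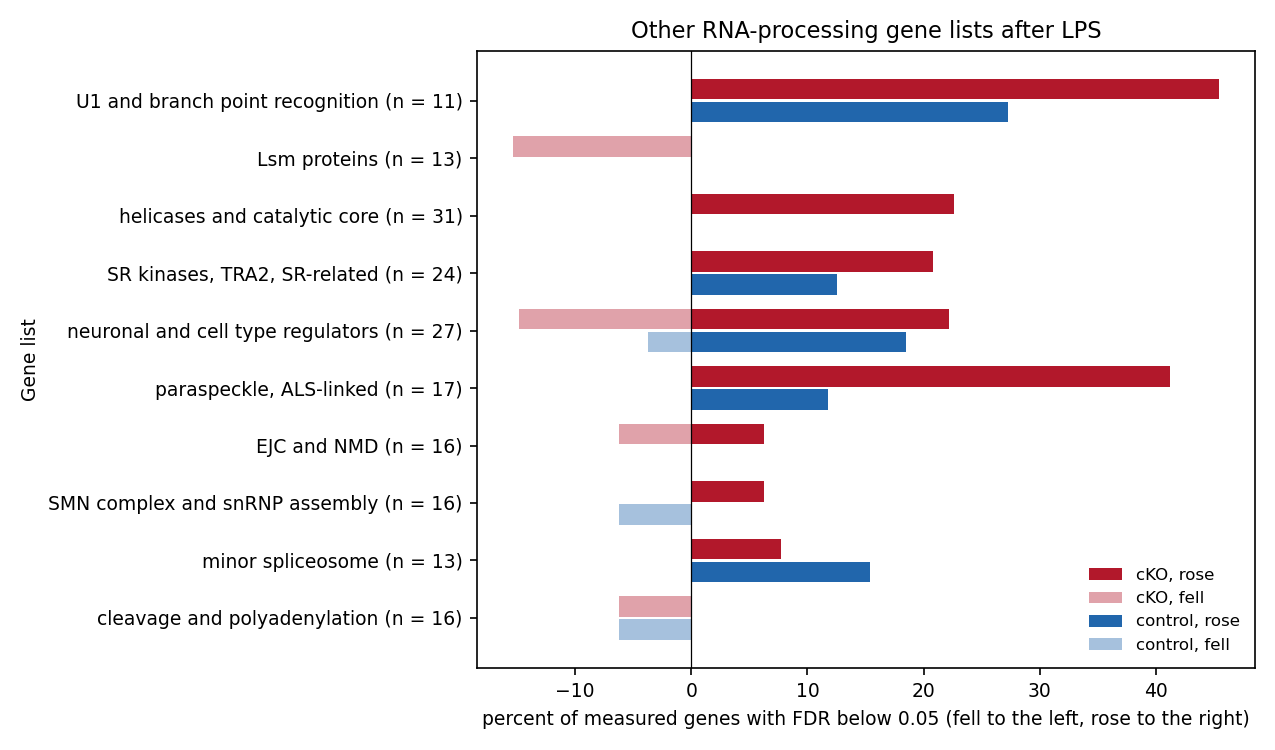
Share of the measured genes of each list (horizontal axis, percent) that rose, to the right, or fell, to the left, after LPS, with 0.05 as the FDR threshold, by the authors' deposited tables, cKO in red above control in blue. The bars for U1 and branch point recognition reach 45.5% in cKO mice and 27.3% in controls, against 10.9% and 6.46% of all genes.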

How the data were processed

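RNA from mouse cortex was sequenced after ribosomal RNA depletion, using a stranded library kit, per the labels' protocols. The submitters' processing notes name cutadapt 3.5, STAR, RSEM, edgeR 3.30.3 and the build GRCm39, with no role or order, and how genes were filtered was not given in the sources used here. For every gene of a comparison the authors deposited, per the file headers, its log2 fold change, mean level (log2 CPM), F score, p-value and FDR. Groups follow the genotype label, which also gives the treatment, since every title carries the word saline. Adjusting the deposited p-values by Benjamini-Hochberg over the 13784 genes gave the deposited FDR. The depth of each library is unknown, and whether mice of a group were handled apart is not stated.

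The headers give no direction. Fold changes were read as LPS over saline and cKO over control, the only reading under which the levels of a group present in 2 tables had differences with an SD across genes of 0.0537 or less; any other reading gave at least 0.222 for 1 group. Levels were back-calculated from the fold change, mean log2 CPM and group sizes, and levels from 2 tables were averaged. Standard errors are the absolute fold change over the root of F. The difference of LPS responses used standard errors derived from each deposited p on a normal scale, checked on simulated data, and was adjusted over all genes. The simulated differences were larger than any estimated for a member, so the check does not show whether differences of the sizes seen here would be found. Transcript length and GC content came from GENCODE M21 (GRCm38), for 99.6% of genes. Python 3.11.15, numpy 2.4.6, scipy 1.17.1, pandas 2.3.3 and scikit-learn 1.9.0 were used.

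Named genes are the 10 largest rises and falls per LPS comparison past the threshold, the 5 smallest p in each direction between genotypes, the 5 extremes in each direction for the difference, members called in both genotypes, family extremes in level and up to 4 genes per list; further members are named as relatives or to complete a family after their values were seen. Members and lists were chosen with earlier results of these data known. Some genes of the lists are not reported here by name.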

Additional observations from a re-analysis of the deposited data

How the results depend on the processing

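No paired analysis was possible because the deposited tables hold no value per library; for the same reason no replicate could be left out, and those alternatives were not run. The counts of members moved with the threshold. At an FDR below 0.1, 22 members rose and 10 fell in cKO mice (32.99% called, against 29.69% of all genes). At the same threshold, 9 rose and 4 fell in controls (13.4% called, against 18.55% of all genes). At an FDR below 0.01, 5 rose and 0 fell in cKO mice (5.155% called, against 3.228% of all genes). At this stricter threshold, 0 rose and 1 fell in controls (1.031% called, against 1.915% of all genes). With a minimum fold change of 1.5, 4 rose and 0 fell in cKO mice (4.12%, against 4.71% of all genes), and 1 rose and 0 fell in controls (1.03%, against 3.61%). Centring at the median of all genes, a mean log2 CPM of at least 1, leaving out X-linked members and, chosen after seeing the data, leaving out 8 members with overlapping or near-identical copies moved no count by more than 1.5 times. Of these, the level filter kept all 97 members and no X-linked member was called, so neither could drop a called member. Removing the trend on GC content and length ended 7 calls of members, 4 in cKO mice and 3 in controls, given beside them. It also added calls, of members not named here. With the trend removed 19 rose and 4 fell in cKO mice, against 16 and 6 with it. In controls 2 rose and 3 fell, against 3 and 4. The thresholds and filters leave each fold change as it is. Centring shifted it only by the median of all genes, -0.001282 in cKO mice and -0.002662 in controls. Only removing the trend on GC content and length could thus have changed the sign of a called member, and it changed none. The median of the members in controls, 0.02, was -0.00 without the 8 members with copies. The depth of the libraries is unknown, so its part in the precision cannot be given.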

Other observations

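The promoters of the members that changed in cKO mice after LPS can be described by the motifs searched, with no test. A GC box (GGGCGG, either strand, in the 250 bases upstream) was present in 13 of the 15 risen members with a window and in 1 of the 5 fallen ones, against 47 of all 83 members with a window (56.6%) and 60.0% of 10271 measured genes. A CCAAT box was present in 5 of 15 and 2 of 5, an ETS core in 4 of 15 and 2 of 5, and an E-box (CACGTG) in 3 of 15 and 1 of 5, against 7 of 83 members (8.43%) and 8.51% of measured genes for the E-box. A TATA box (TATAAA) was present in 1 of the 15 risen members and 0 of the 5 fallen ones, against 9 of 83 members and 6.05% of measured genes. The members were grouped by their response before the motifs were counted, and 8 motifs were searched.

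Exon bases shared with another annotated gene on the same strand were present in 13 of the 97 members, and on the opposite strand in 31. Besides Rbm12, members called after LPS with a large overlap include Srsf4, where 43.0% of exon bases lie opposite a processed transcript, Gm12992. Whether the authors' counting used strand was not given in the sources used here.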
